A study of Homo sapiens with 8 samples.

Results

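The SLC25 family holds the carriers that move metabolites across the inner membrane of mitochondria. The members measured here were SLC25A15 and SLC25A2, the ornithine carriers ORC1 and ORC2. They were chosen by name, as genes whose platform symbol is SLC25A followed by a number only, and they were 2 of the 14884 genes named on the arrays. A RefSeq gene table lists 48 such symbols, and the other 46, which include every listed carrier of nucleotides, carboxylates, fatty acids and metals, were not analysed here. Both measured members fall in the amino acid group, so the substrate groups could not be compared.

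The cells were MOLM-14 (MOLM14 in the labels), an established human acute myeloid leukaemia line, exposed to doxycycline for 72 h in both groups. In the 4 shCD39 arrays a hairpin RNA directed at ENTPD1, the gene of the surface enzyme CD39, was expressed, and in the 4 shCTRL arrays a scrambled hairpin. The labels call the 4 arrays of each group technical replicates and speak of clones without saying how many, and a p-value therefore covers array-to-array spread alone, which may be technical. The design asks which genes depend on CD39.

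Mitochondrial carriers share a fold built of repeats and mostly work as exchangers, importing one solute while exporting another. ORC1 exchanges cytosolic ornithine for matrix citrulline, a step of the urea cycle in liver, and supplies ornithine to matrix ornithine aminotransferase in other tissues. Inherited loss of SLC25A15 causes the hyperornithinaemia-hyperammonaemia-homocitrullinuria syndrome. ORC2 likewise transports ornithine and citrulline. SLC25A2 is an intronless relative of SLC25A15.

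Of the 2 carriers, 1 matched the RefSeq promoter sequences, SLC25A15, and its window is shown as the start region of the main ornithine carrier (GRCh38.p14, plus strand, chr13:40789361-40789660, covering 250 bases before to 50 bases after the annotated start).
SLC25A15: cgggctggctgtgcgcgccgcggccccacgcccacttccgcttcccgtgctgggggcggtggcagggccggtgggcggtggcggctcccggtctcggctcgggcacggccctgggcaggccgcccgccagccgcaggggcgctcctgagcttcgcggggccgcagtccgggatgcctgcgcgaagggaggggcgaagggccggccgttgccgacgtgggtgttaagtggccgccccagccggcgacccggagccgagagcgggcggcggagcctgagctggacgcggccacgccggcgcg
All letters are lower case because no searched motif was found in this window. The motifs, read on both strands, were the E-box CACGTG, the cAMP response element TGACGTCA, the ATF4-type sequence TGATGNAA and a motif of NRF1, a factor of nuclear-encoded mitochondrial genes. They occur in 7.26%, 1.85%, 3.62% and 5.78% of the 35116 RefSeq promoter windows of this length. The window was rich in G and C, at 80.0% against a median of 58.7% over all windows, and held 45 CG steps against a median of 14.

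Values are log2 expression levels after RMA, a scale on which levels of different probe sets cannot be compared. All differences are shCD39 minus shCTRL. Means are given ± SD, standard errors (SE) and adjusted p-values come from a limma fit over all 14884 genes, and the threshold was an adjusted p of 0.05. ENTPD1 itself read 2.42, 2.14, 2.72 and 2.95 in shCD39 arrays 1 to 4, against 3.16, 2.88, 3.21 and 4.12 in shCTRL arrays 1 to 4. The difference was -0.79 on the log2 scale and missed the threshold (limma adjusted p = 0.178), with shCD39 array 4 above shCTRL array 2. All ENTPD1 readings lay under 4.30, the median of the gene means, and whether they rose above background was not tested. Over the named genes shCD39 array 4 correlated at 0.985 on average with the other shCD39 arrays and at 0.989 with the shCTRL arrays.

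Neither ornithine carrier passed the threshold: 0 of 2 were called by limma, against 0.0941% of all genes (14 of 14884). At an unadjusted p under 0.05 the count was 1 of 2, SLC25A2, against 14.7% of all genes, and it was 0 of 2 when any 1 of 4 arrays was left out (shCD39 array 2 or 4, shCTRL array 3 or 4), where the limma unadjusted p of SLC25A2 lay between 0.0645 and 0.0914. Both means were lower in shCD39, as were 48.0% of those of all genes. The median log2 difference was -0.20 over the 2 carriers and 0.01 over all genes. The groups overlapped in both carriers, while they did not overlap in 7.85% of all genes.

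SLC25A15, the main ornithine carrier, read 6.57, 6.49, 6.64 and 6.88 in shCD39 arrays 1 to 4, against 6.73, 6.71, 6.64 and 6.94 in shCTRL arrays 1 to 4. The array numbered 4 was the highest of its group in both groups, and shCD39 array 4 read above shCTRL arrays 1 to 3. The mean was 6.64 ± 0.17 in shCD39 and 6.75 ± 0.13 in shCTRL (log2 level, n = 4 arrays each). The difference of -0.11 (SE 0.12, limma adjusted p = 0.731) was smaller than the SD within either group, and the 2-sided exact permutation p was 0.371. Its 95% interval ran from -0.37 to 0.15 on the log2 scale, or from 0.773 to 1.11 times the shCTRL level. Of all genes, 44.0% had a smaller absolute difference than SLC25A15.

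SLC25A2, the second ornithine carrier, read 3.95, 3.77, 3.85 and 3.75 in shCD39 arrays 1 to 4, against 4.08, 3.89, 4.26 and 4.22 in shCTRL arrays 1 to 4. The only crossing was between shCD39 array 1 and shCTRL array 2, and the other shCD39 arrays lay below every shCTRL array. The mean was 3.83 ± 0.09 in shCD39 and 4.11 ± 0.17 in shCTRL (log2 level, n = 4 arrays each). Both means lay under 4.30, the median of the gene means, and whether the probe set read above background was not tested. The difference of -0.28 (SE 0.11), or 1.22-fold lower in shCD39, did not pass over all genes (limma adjusted p = 0.283, unadjusted p = 0.0308). The 2-sided exact permutation p was 0.0571, where 0.0286 is the smallest that 4 against 4 arrays can give. The 95% interval ran from -0.53 to -0.03 on the log2 scale, and 81.8% of all genes had a smaller absolute difference.

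**Figure D1:**
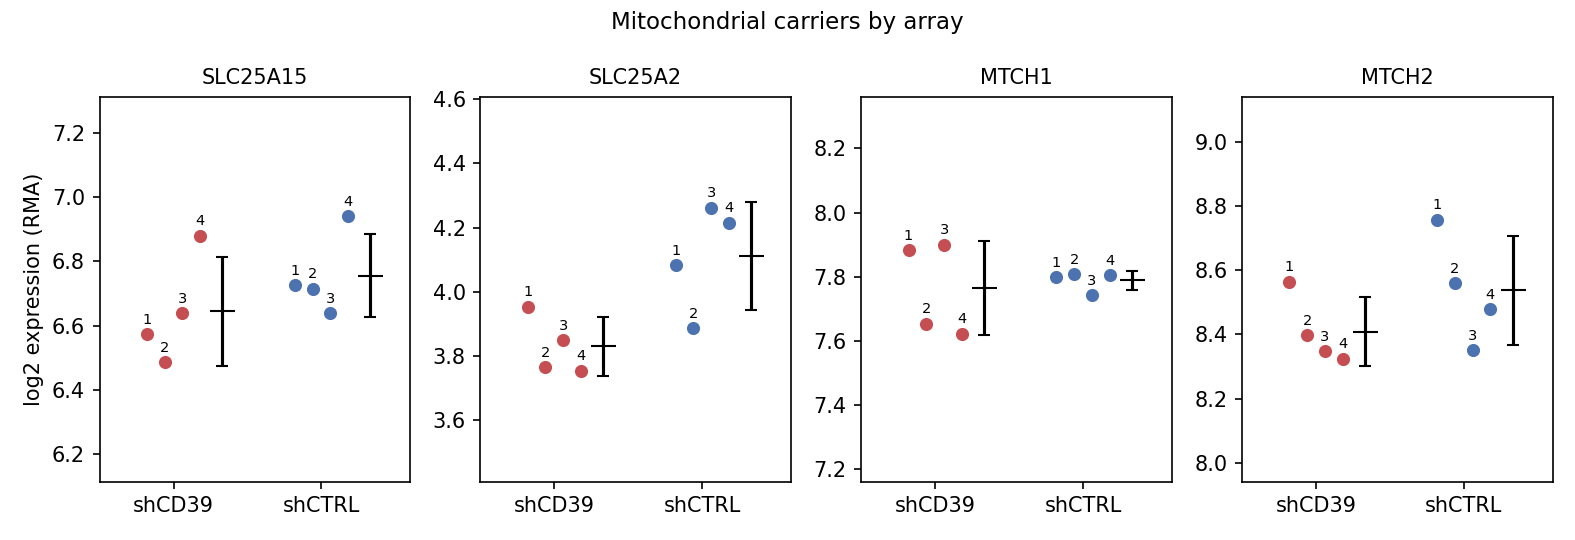
Log2 expression level (RMA, vertical axis, each panel spanning the same log2 range) of the SLC25A carriers SLC25A15 and SLC25A2 and of their relatives MTCH1 and MTCH2 in the 4 shCD39 and 4 shCTRL arrays. Points are arrays with their numbers, and bars are mean ± SD. SLC25A2 overlaps only by shCD39 array 1 at 3.95 and shCTRL array 2 at 3.89, while the groups of the other genes overlap more widely.

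The carriers did not move alike in every array. In shCD39 array 4 SLC25A15 had the highest value of its group, 6.88, whereas SLC25A2 had the lowest, 3.75. The change of SLC25A2 minus that of SLC25A15 was -0.17 on the log2 scale, which was not beyond the spread between arrays (2-sided exact permutation p = 0.400). Each carrier was read by 1 probe set. The genes are close relatives, and RefSeq lists 5 pseudogenes of SLC25A15, so a probe set of one may also bind transcripts of another; probe sequences were not analysed here.

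The lower mean of each carrier was seen in every setting tried, and neither carrier passed in any of them. For SLC25A15 the difference lay between -0.19 without shCD39 array 4 and -0.03 after quantile normalization, over 17 settings, with limma adjusted p from 0.419 to 0.940; it was -0.06 without shCD39 array 2 and -0.05 without shCTRL array 4. For SLC25A2 it lay between -0.36 without shCTRL array 2 and -0.22 without both arrays numbered 4, over 16 settings, with limma adjusted p from 0.250 to 0.505. Without shCD39 array 4 the differences were -0.19 and -0.26, with 2.84% of all genes called in that setting.

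**Figure D2:**
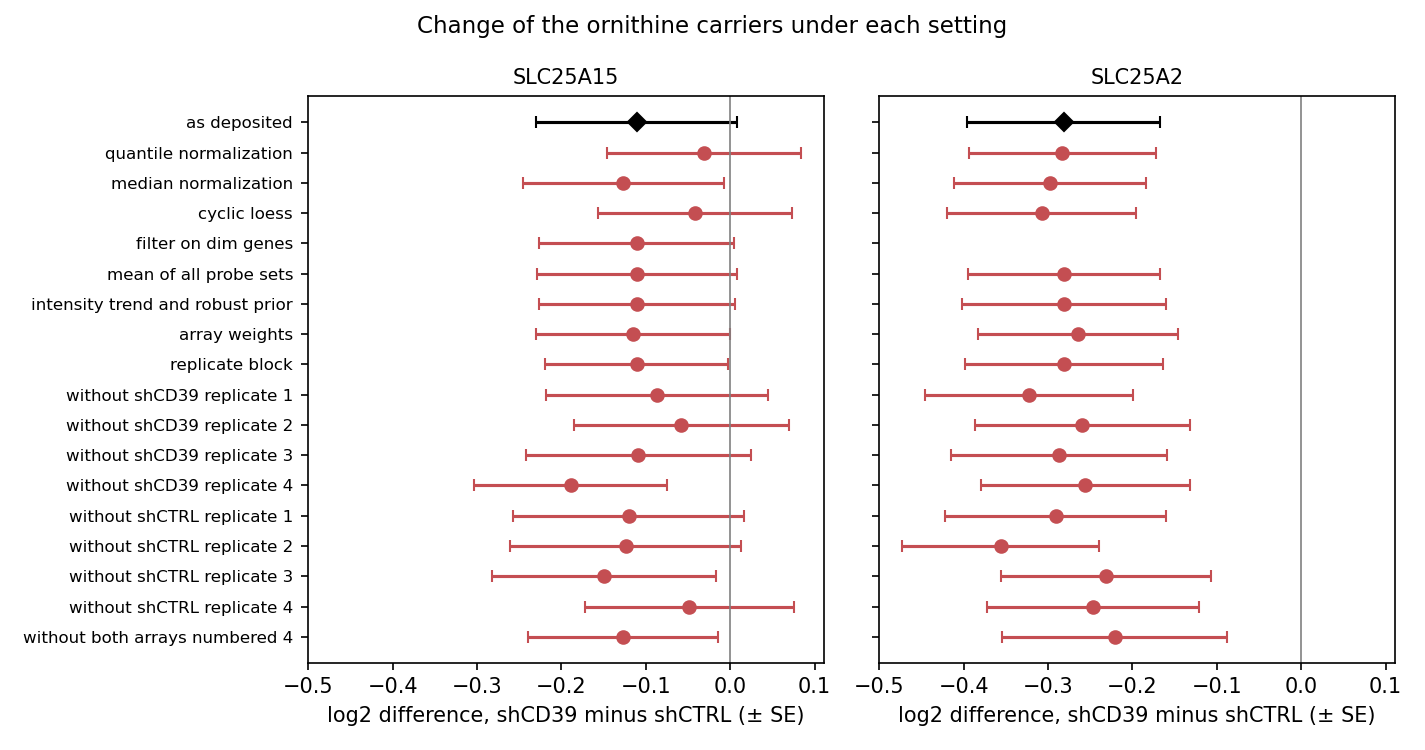
Log2 difference of SLC25A15 and SLC25A2, shCD39 minus shCTRL (horizontal axis, ± SE), as deposited (black diamonds) and under each alternative setting (red circles, 1 row each). Every point lies left of 0, from -0.19 to -0.03 for SLC25A15 and from -0.36 to -0.22 for SLC25A2. SLC25A2 has no point for the filter on dim genes, because its mean lay under the filter.

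MTCH1 and MTCH2, relatives in the outer membrane that RefSeq also lists as SLC25A49 and SLC25A50, were measured under their other symbols and are not counted as members. MTCH2, an insertase of the outer membrane, read 8.56, 8.40, 8.35 and 8.32 in shCD39 arrays 1 to 4, against 8.76, 8.56, 8.35 and 8.48 in shCTRL arrays 1 to 4, and the difference of -0.13 (SE 0.12) did not pass (limma adjusted p = 0.675). Without shCTRL array 1 it was -0.05. MTCH1 read 7.88, 7.65, 7.90 and 7.62 in shCD39 arrays 1 to 4, against 7.80, 7.81, 7.74 and 7.80 in shCTRL arrays 1 to 4. Its difference of -0.02 (SE 0.11, limma adjusted p = 0.949) turned to 0.05 after quantile normalization and after cyclic loess. In the family as measured, 0 of 4 genes thus passed.

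Another 5 symbols contain SLC25A but fall outside the naming rule, 4 long non-coding RNAs and 1 pseudogene, and 0 of them passed. SLC25A25-AS1, named after its values were seen because its difference was the largest of these, read 3.68, 3.36, 2.78 and 3.67 in shCD39 arrays 1 to 4, against 3.87, 4.20, 4.06 and 3.29 in shCTRL arrays 1 to 4. Its groups overlapped, and the difference was -0.48 (SE 0.23, limma adjusted p = 0.357), or -0.29 without shCD39 array 3. These transcripts give no reading of the carriers whose names they bear.

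The enzymes that make or use the carriers' substrates were taken next. Of 11 listed enzymes of proline, ornithine and arginine, 7 were measured, and 0 rose or fell past the threshold. The means of 5 were lower and those of 2 higher in shCD39, with a median of -0.15 on the log2 scale. Of all genes, 48.0% had a lower mean. The groups did not overlap in 2 of 7, ASS1 and PYCR1, against 7.85% of all genes. Without shCD39 array 4 these 2 enzymes passed as lower, in a setting where 2.10% of all genes were called lower. The list had 0 calls without shCTRL array 4, where 48 of 14884 genes were called. Its count without shCTRL array 1 says nothing about these enzymes, because 0 of all genes were called there. Enzymes other than ASS1 are named beyond the naming rule, after their values were seen, so that each measured enzyme of the list is given.

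ASS1, argininosuccinate synthetase, joins citrulline, the product the ornithine carriers export, to aspartate. It read 10.31, 10.62, 10.07 and 10.72 in shCD39 arrays 1 to 4, against 11.37, 11.25, 11.31 and 10.79 in shCTRL arrays 1 to 4. All shCD39 arrays lay below all shCTRL arrays, although shCD39 array 4 and shCTRL array 4 came within a small distance. The difference of -0.75 (SE 0.17) did not pass (limma adjusted p = 0.0939). It passed in 3 of 17 other settings: with array weights, without shCD39 array 4 and without both arrays numbered 4. The limma adjusted p ran from 0.0181 without both arrays numbered 4 to 0.287 without shCTRL array 1. Without shCD39 array 4 the difference was -0.85 (limma adjusted p = 0.0316).

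PYCR1, a mitochondrial enzyme of the last step of proline synthesis, read 6.61, 6.24, 6.26 and 6.76 in shCD39 arrays 1 to 4, against 6.92, 7.12, 7.09 and 6.87 in shCTRL arrays 1 to 4. The highest shCD39 array lay just under the lowest shCTRL array, and both were numbered 4. The difference was -0.53 (SE 0.14, limma adjusted p = 0.123), or -0.63 without shCD39 array 4 (limma adjusted p = 0.0339). It passed in 2 of 17 other settings, without shCD39 array 4 and without both arrays numbered 4. The limma adjusted p reached 0.287 without shCTRL array 1.

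OAT, the matrix ornithine aminotransferase, differed by 0.02 (SE 0.13). Its sign turned without shCD39 array 4, at -0.06, and without shCTRL array 3, at -0.05. ODC1, which turns ornithine into putrescine in the cytosol, had a difference of -0.15 (SE 0.18), which was -0.09 without shCD39 array 1, -0.01 without shCD39 array 3, -0.33 without shCD39 array 4 and -0.10 without shCTRL array 4. ASL, which splits argininosuccinate, had one of 0.01 (SE 0.12), with the sign turning under 3 settings. The cytosolic proline enzyme PYCR3 differed by -0.15 (SE 0.10) and the proline oxidase PRODH by -0.12 (SE 0.16). For PRODH the value was -0.03 without shCD39 array 2, -0.24 without shCD39 array 4, -0.01 without shCTRL array 1 and -0.20 without shCTRL array 2. The groups overlapped in each of these 5 enzymes.

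**Figure D3:**
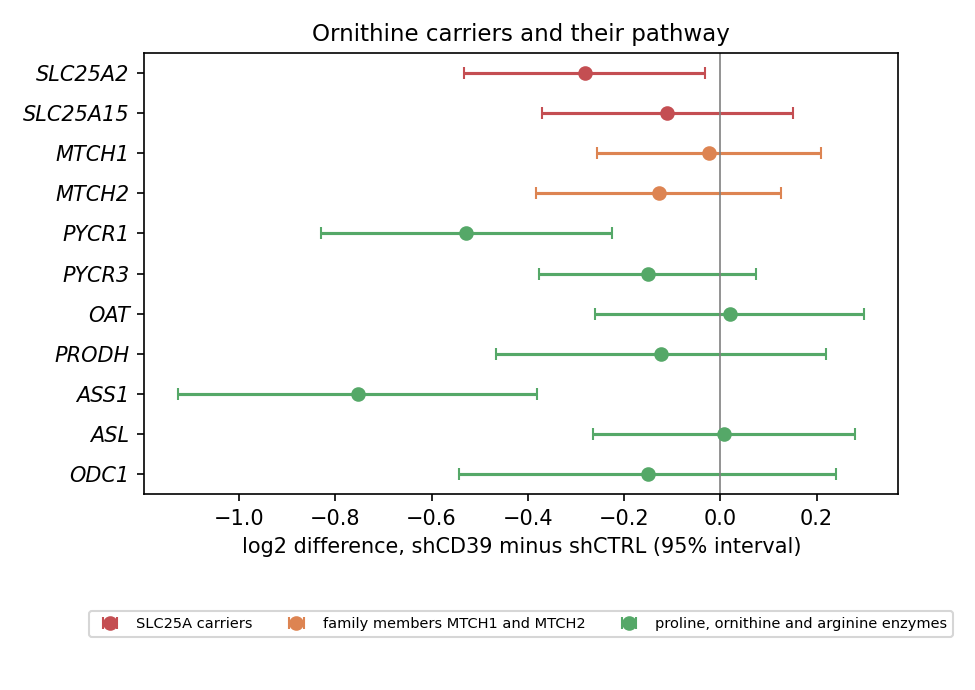
Log2 difference, shCD39 minus shCTRL, with its 95% interval (horizontal axis) for the SLC25A carriers (red), the relatives MTCH1 and MTCH2 (orange) and 7 enzymes of proline, ornithine and arginine (green). ASS1 at -0.75 and PYCR1 at -0.53 lie farthest from 0, and SLC25A2 at -0.28 lies between them and the rest. None of the genes drawn passed the threshold over all genes.

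Of 20 other listed transporters of the mitochondrial membranes, 13 were measured and 0 passed, against 0.0941% of all genes. In shCD39 11 means were lower and 2 higher, with a median of -0.09, while 48.0% of all genes had a lower mean. How these signs move under other normalizations was not tested for the whole list. The groups did not overlap in 3 of 13, against 7.85% of all genes; these were SFXN1, SFXN2 and SFXN4, sideroflexins of the inner membrane with lower means in shCD39. The other measured sideroflexins, SFXN3 at -0.02 and SFXN5 at 0.22, overlapped. SFXN2, linked to mitochondrial iron, averaged 5.96 ± 0.20 in shCD39 and 6.79 ± 0.22 in shCTRL (n = 4 arrays each). Its difference of -0.83 (SE 0.14) did not pass (limma adjusted p = 0.0556). It passed in 6 of 17 other settings, with limma adjusted p from 0.0233 without shCD39 array 4 to 0.208 without shCTRL array 1. SFXN4 had -0.56 (SE 0.15) and passed in 2 of 17 other settings, without shCD39 array 4 and without both arrays numbered 4. Its limma adjusted p ran from 0.0146 without shCD39 array 4 to 0.326 without shCTRL array 1. Without shCD39 array 4, 2 of 13 transporters fell, SFXN2 and SFXN4, where 2.10% of all genes were called lower. The serine importer SFXN1 had -0.37 (SE 0.13), with both group means under 4.30, the median of the gene means. The sideroflexins other than SFXN2 were named after their values were seen.

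The remaining lists were of pathways that exchange solutes through SLC25 carriers, and they hold genes that act outside the matrix as well as matrix enzymes. In these lists 0 genes passed with all arrays, against 0.0941% of all genes. Over 7 one-carbon genes the median was -0.48, led by the serine hydroxymethyltransferase SHMT2 at -0.84 (SE 0.17, limma adjusted p = 0.0783). Without shCD39 array 4, 3 of 7 fell, where 2.10% of all genes were called lower. Without shCTRL array 4, 1 of 7 fell, where 48 of 14884 genes were called. The count without shCTRL array 1 says nothing about these genes, because 0 of all genes were called there. The 7 citrate and acetyl-CoA enzymes had a median of -0.15, with citrate synthase (CS) at -0.42, and the 2 malate-aspartate and glutamate enzymes one of -0.06, with GLUD1 at -0.19, or -0.06 without shCTRL array 4. The 5 genes of the carnitine system had a median of 0.10, with CPT1A at 0.50. The 12 haem and iron-sulphur genes had one of 0.03, with ISCU at 0.35, and the 3 adenine nucleotide and ATP synthase genes one of 0.16, with ATP5IF1 at 0.34.

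Of the measured markers of other cell types 0 passed, against 0.0941% of all genes. The median was 0.17 over the 3 of 10 listed erythroid genes that were measured (AHSP 0.26, or 0.13 without shCD39 array 1). Of these 3 means 2 were higher and 1 lower in shCD39. The median was 0.14 over 5 of 8 T and NK cell genes, with 4 means higher and 1 lower (NKG7 0.50). The median was -0.04 over 2 of 6 B cell genes, with 1 mean higher and 1 lower (PAX5 -0.27). Over 4 of 8 fibroblast and epithelial genes it was 0.24 (THY1 0.29). The groups did not overlap in NKG7, in PAX5 and in 1 of these 4 genes, against 7.85% of all genes. Among 8 myeloid line markers the median was 0.11, and CSF1R had 1.36 (SE 0.29, limma adjusted p = 0.0849). Of the 8 means 5 were higher and 3 lower, including FLT3 at -0.29 and MEIS1 at -0.28, both named after their values were seen. Without shCD39 array 4, the setting in which ASS1, PYCR1, SFXN2, SFXN4 and 3 one-carbon enzymes fell, 2 of these 8 markers rose. With all arrays 0 of these genes passed. The array left out correlated higher on average with the shCTRL arrays (0.989) than with the other shCD39 arrays (0.985). Leaving it out gave the most calls of any setting, 423 genes. In that setting 2.84% of all genes were called in either direction, and 2.10% were called lower. The 2 markers that rose were CSF1R at 1.64 (limma adjusted p = 0.00774) and the lysozyme gene LYZ at 1.33 (limma adjusted p = 0.00475). LYZ was named after its values were seen. The part of any of these markers in the values of the carriers and enzymes was not tested.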

How the data were processed

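RNA from 4 shCD39 and 4 shCTRL samples was biotin-labelled for Affymetrix arrays, per the labels' protocols. The authors deposited log2 values per probe set, made with RMA in the oligo package per the submitters' processing notes; the version and build were not given in the sources used. RMA sets the probe intensities of all arrays to a shared distribution, so differences are relative. The deposited probe set values did not share one exactly. Quantile normalization of these values moved the log2 difference of SLC25A15 from -0.11 to -0.03, of MTCH2 from -0.13 to -0.06 and of CS from -0.42 to -0.35. That of SLC25A2 stayed at -0.28. Of 53617 probe sets, 37519 are unnamed here and 16098 had 1 symbol, updated through Entrez IDs with a RefSeq table of GRCh38.p14. The probe set with the highest mean represented a gene, giving 14884 genes. Array medians lay between 3.13 and 3.17, pairwise correlations between 0.974 and 0.987, and 0 pairs of arrays held the same values. The number of arrays limits the precision.

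Groups were compared with limma 3.58.1 (lmFit, eBayes) in R 4.3.3, 2-sided, with Benjamini-Hochberg adjustment over all genes; the fit was tested on simulated data. Single values also had 2-sided exact permutation tests. Figures used matplotlib 3.10.9 in Python 3.11.15. Values per array are given for the measured carriers and, per pathway or marker list, the gene with the largest change is named. The members and lists were chosen with earlier results of these data known. Alternatives were leaving out each array, a replicate block, array weights, an intensity trend with robust prior, averaging a gene's probe sets, dropping dim genes, and 3 normalizations (cyclic loess, median, quantile). Dropping both arrays numbered 4 was chosen after seeing the data.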

Additional observations from a re-analysis of the deposited data

Results flagged for a closer look

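A single array stood apart from the other 3 of its group, by Dixon's criterion for groups of 4, in 4 of 56 groups screened. The screen covered the genes named above except FLT3, LYZ, MEIS1, SFXN3 and SFXN5. By chance about 1 in 20 groups is flagged. None of the 4 concerned SLC25A15 or SLC25A2. MTCH1 was low in shCTRL array 3 at 7.74, within a group whose SD was 0.03. GLUD1 was high in shCTRL array 4 at 6.78. ISCU was low in shCD39 array 4 at 6.24, and MTHFD1L, a mitochondrial one-carbon enzyme named after its values were seen, was high there at 8.19.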

How the results depend on the processing

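The count of SLC25 carriers past the threshold was 0 in all 17 alternative settings, and the median log2 difference of the carriers lay between -0.24 and -0.11, the last under the filter on dim genes, where it is that of SLC25A15 alone. That filter, at a mean of 4.30, left out SLC25A2 and, among others, ENTPD1, PRODH and SFXN1. The count of all genes past the threshold was 14 as deposited, 5 after quantile normalization, 64 with the filter on dim genes, 22 with an intensity trend and robust prior, 124 with array weights, and 368 without both arrays numbered 4. Leaving out 1 array gave from 0 (without shCTRL array 1, with 1574 genes at an unadjusted p under 0.05 by limma) to 423 (without shCD39 array 4). With the replicate number as a block it was 6; samples with the same number did not deviate together (correlations of -0.01, -0.04, 0.05 and 0.06), so the numbers were not taken as pairs. Signs turned only in differences near 0. MTCH1 gave 0.048 after quantile normalization, 0.050 after cyclic loess, 0.029 with both arrays numbered 4 dropped, and from -0.069 to 0.024 when 1 array was left out. ASL gave -0.0090 after median normalization, and from -0.091 to 0.065 when 1 array was left out. For OAT that range ran from -0.058 to 0.087. The cause of these changes was not tested.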
